A study of Mus musculus with 24 samples.

Results

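The 8 genes described here make or regulate fatty acids and sterols. They are the stearoyl-CoA desaturase genes Scd1 and Scd2, the fatty acid genes Fasn, Acaca and Elovl6, the regulator Srebf1, and the sterol synthesis genes Hmgcs1 and Sqle. They were picked by name and function out of 57010 genes, and all 8 passed the filter on low counts in both deposited tables. The choice drew on measured values: Scd1 and Scd2 were picked for their lower level with odor over both batches, and results for the others were known. Their values against the no-odor controls are therefore a description, given without p-values.

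Messenger RNA of the olfactory epithelium, the sensory lining of the nose, was counted in 24 libraries from wild-type male C57BL/6J mice aged 8 weeks. After 4 h of habituation alone in an odor-free chamber, each mouse met its condition for 90 min, as 10 µL of odorant on filter paper or as empty paper. There were 2 batches of 4 groups with 3 biological replicates each. The AD batch had acetophenone, which is an aromatic ketone, decanal, which is a straight-chain aldehyde, a 1:1 mixture of both (AD mixture) and no odor (AD control). The OC batch had octanal (a straight-chain aldehyde shorter than decanal), cis-3-hexenol (an unsaturated alcohol), their 1:1 mixture (OC mixture) and no odor (OC control). The perfused tissue was homogenized in cycloheximide buffer, and RNA was taken from the detergent supernatant after a pair of spins. The study's title asks how the transcriptome answers to single odorants and to binary mixtures.

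Cells build saturated fatty acids from acetyl-CoA, which acetyl-CoA carboxylase (Acaca) turns into malonyl-CoA for fatty acid synthase (Fasn). The elongase encoded by Elovl6 lengthens the product, and the stearoyl-CoA desaturases put a double bond into it, giving the monounsaturated fatty acids of membranes, myelin and stored fat. Sterol synthesis starts from the same acetyl-CoA: Hmgcs1 encodes the cytosolic enzyme that makes HMG-CoA, and Sqle encodes squalene epoxidase, which acts just before the sterol rings close. Srebf1 encodes SREBP-1, a membrane-bound transcription factor of the fatty acid genes, while its relative SREBP-2, from Srebf2, mainly drives the sterol genes. In the mouse Scd1 is known best from liver, fat and skin glands, and Scd2 from brain and myelinating cells.

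Promoter windows were read from RefSeq sequences of the mouse build GRCm38.p6. A window stood there for 5 of the 8 genes, with 3 windows for Srebf1 and none for Scd1, Scd2 or Sqle. Windows of Hmgcs1 and Fasn are shown as examples, 1 gene of the sterol branch and 1 of the fatty acid branch. Each is the 250 bases before the start site, 5′ to 3′ on the gene's strand; capitals mark CCAAT boxes (CCAAT), GC boxes (GGGCGG) and the core of a sterol regulatory element (TCACNCCAC), each on either strand.
Hmgcs1, plus strand, chr13:119690101-119690350: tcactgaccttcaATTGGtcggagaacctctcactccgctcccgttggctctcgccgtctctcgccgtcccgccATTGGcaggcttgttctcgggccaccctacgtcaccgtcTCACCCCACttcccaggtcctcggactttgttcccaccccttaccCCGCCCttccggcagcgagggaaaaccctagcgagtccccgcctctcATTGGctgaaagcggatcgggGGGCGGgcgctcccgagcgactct
Fasn, minus strand, chr11:120824548-120824797: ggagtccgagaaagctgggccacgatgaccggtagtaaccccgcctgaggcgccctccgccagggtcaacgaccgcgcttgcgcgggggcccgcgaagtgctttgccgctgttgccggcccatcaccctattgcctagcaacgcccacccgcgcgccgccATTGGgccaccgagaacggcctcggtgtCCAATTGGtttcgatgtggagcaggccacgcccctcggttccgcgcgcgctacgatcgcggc
The Hmgcs1 window held 1 sterol regulatory element core, beginning 137 bases before the start site, with 3 CCAAT boxes and 2 GC boxes. The Fasn window held 3 CCAAT boxes, of which 2 overlap on opposite strands, and no match to the other motifs. Of all 32851 RefSeq windows of this length, 1.05% held the sterol element core, 33.8% a CCAAT box and 32.7% a GC box. Such matches are descriptions of the letters and not evidence of binding.

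The AD libraries held 20604861 to 24802512 counts each, and the OC libraries 19003768 to 24531349. Levels are CPM, each count relative to its library's scaled total, comparable between the 12 libraries of a batch, and the batches were scaled apart unless a sentence says otherwise. Markers of the labelled tissue were present: 8 sustentacular cell markers summed to 14900 to 23700 CPM over the 24 libraries. Markers of blood, marrow and bone differed between groups. The summed level of 6 erythroid genes was 2140 to 2580 CPM with decanal and 1800 to 2540 CPM with the AD mixture, against 493 to 648 CPM in AD controls. In the OC batch it was 746 to 1120 CPM with octanal, 1290 to 1940 CPM with cis-3-hexenol and 846 to 1820 CPM with the mixture, against 2160 to 4470 CPM in OC controls. All 6 erythroid genes rose with decanal and with the AD mixture, and 6 fell with octanal, 4 with cis-3-hexenol and 5 with the OC mixture. Over all genes 11.4% were called higher (adjusted p under 0.05, edgeR) with decanal and 10.6% with the AD mixture. Called lower were 15% with octanal, 6.65% with cis-3-hexenol and 12.7% with the OC mixture. In bulk tissue, fewer cells of a type and less RNA per cell cannot be told apart.

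OC control 3 stood apart from the other libraries. Its 10 marker genes of Bowman and nasal glands summed to 45600 CPM, against 13300 and 15100 CPM in OC controls 1 and 2 and 9060 to 27200 CPM in the odor groups and AD controls, and it had the lowest scaling factor of its batch, 0.903. Without it, 3 of the 8 genes described here were called with octanal (adjusted p under 0.05, edgeR), 2 with cis-3-hexenol and 6 with the OC mixture, where all 3 controls gave 5, 5 and 6. Scd1 then stood at -0.41 with octanal, -0.39 with cis-3-hexenol and -0.68 with the OC mixture on the log2 scale, and was called in each. Scd2 stood at -0.11, -0.30 and -0.39, with the octanal call lost. Sqle stood at 0.63, 0.26 and 0.38, with the cis-3-hexenol call lost. The calls of Acaca with octanal (-0.41) and of Fasn (-0.36) and Elovl6 (-0.22) with cis-3-hexenol were lost as well. The value of Scd2 with octanal moved most without OC control 3. It was -0.24 with all libraries and -0.11 without OC control 3. In the other fits that left out 1 library it ran from -0.33 to -0.22. Loss of a call was not particular to OC control 3. With each of 6 libraries left out in turn, the octanal call was lost in 5 fits for Scd2 and 4 for Acaca. The cis-3-hexenol calls of Fasn, Elovl6 and Sqle were each lost in 4 of 6 fits. Without OC control 3, 4945, 1498 and 4112 of all genes were called with octanal, cis-3-hexenol and the OC mixture, against 5640, 2341 and 4647.

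Scd1 (ENSMUSG00000037071, chromosome 19), the desaturase gene of liver and skin, was lower in all 18 odor libraries than in every control library of their own batch. It stood at 59.3, 43.4 and 51.5 CPM with acetophenone, 47.6, 50.6 and 46.0 CPM with decanal and 44.9, 50.4 and 49.1 CPM with the AD mixture, against 61.4, 66.5 and 61.0 CPM in AD controls. Among OC libraries it stood at 48.5, 50.5 and 45.3 CPM with octanal, 47.0, 49.6 and 48.4 CPM with cis-3-hexenol and 42.2, 40.0 and 37.1 CPM with the OC mixture, against 60.5, 67.5 and 71.8 CPM in OC controls. No odor group overlapped its controls, and the acetophenone mice spread most among themselves. Of all genes, 6.34% lay wholly below their controls with acetophenone, 20.1% with decanal and 18% with the AD mixture. In the OC batch the shares were 20.6% with octanal, 15.5% with cis-3-hexenol and 17.9% with the OC mixture. Wholly above lay 8.2%, 20.7%, 18.6%, 19.7%, 15.1% and 16.6%, in the same order. These shares hold for each gene set against its controls below. The log2 fold changes against control were -0.29 ± 0.09 (SE) for acetophenone, -0.39 ± 0.09 for decanal and -0.39 ± 0.09 for the AD mixture. For the OC groups they were -0.47 ± 0.08 for octanal, -0.46 ± 0.08 for cis-3-hexenol and -0.74 ± 0.08 for the OC mixture. The OC mixture had the lowest Scd1 of its batch, with all 3 libraries below every other OC library.

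Scd2 (ENSMUSG00000025203, chromosome 19), the desaturase gene of brain and myelin, followed the same pattern at higher counts, again with no overlap in any of the 6 comparisons. Levels were 102, 93.1 and 107 CPM with acetophenone, 105, 96.2 and 84.8 CPM with decanal and 106, 107 and 95.3 CPM with the AD mixture, against 129, 116 and 116 CPM in AD controls. Octanal libraries had 115, 114 and 111 CPM, those with cis-3-hexenol 99.9, 94.9 and 102 CPM and those with the OC mixture 96.8, 92.3 and 91.1 CPM, against 129, 117 and 155 CPM in OC controls. Octanal came closest to its controls, and OC control 3 stood above the other controls. The log2 fold changes were -0.26 ± 0.07 for acetophenone, -0.34 ± 0.07 for decanal, -0.23 ± 0.07 for the AD mixture, -0.24 ± 0.08 for octanal, -0.43 ± 0.08 for cis-3-hexenol and -0.52 ± 0.08 for the OC mixture. Of 19015 genes tested in both batches, 12 had every odor library below all controls of its batch in all 6 comparisons, which is 0.0631% of genes. Scd1 and Scd2 were among them, and since this is the kind of value that led to their choice, nothing is read from it.

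**Figure D1:**
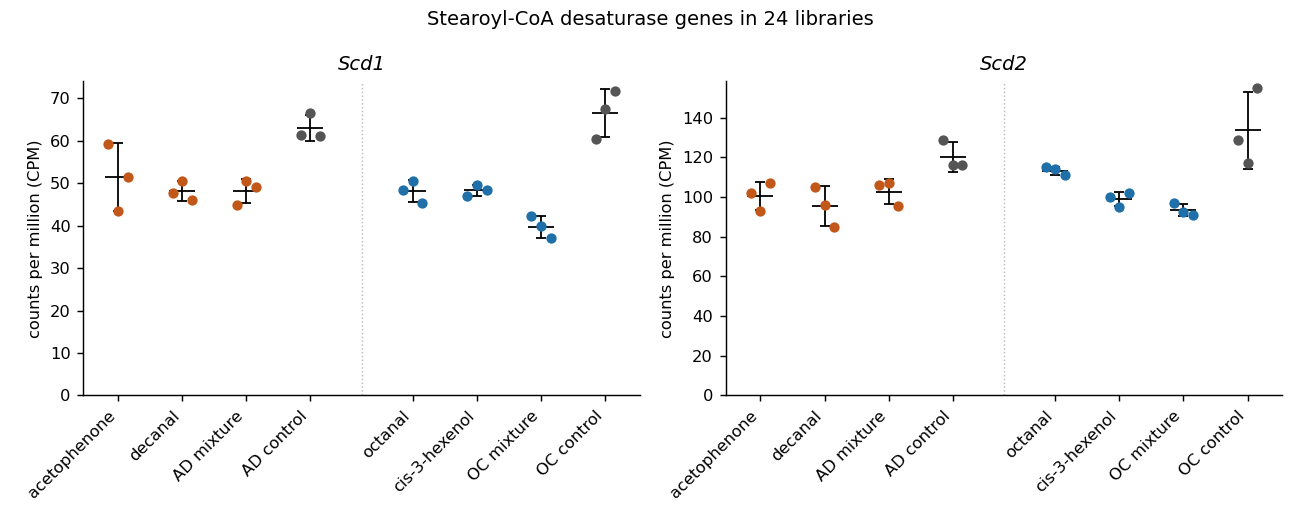
CPM of Scd1 (left) and Scd2 (right) in each of the 24 libraries, by group; points are libraries, the horizontal line is the group mean and the bar its SD (n = 3), and a dotted line parts the AD batch (orange) from the OC batch (blue), controls in grey. Every odor library lies below the 3 controls of its batch, and Scd1 is lowest in the OC mixture, at 37.1 to 42.2 CPM.

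Of the paralogs, Scd3 did not show this pattern, and Scd4 had too few counts to tell. Scd3 (ENSMUSG00000025202), a desaturase gene of skin glands, had 85 to 152 counts per library and was called in none of the 6 comparisons, with log2 fold changes from -0.09 with the OC mixture to 0.28 with acetophenone. Scd4 (ENSMUSG00000050195), known from heart, had 0 to 8 counts per library and was not tested. The 4 genes are near-identical in places: 252 of the 31-base words of the Scd1 transcript, 5.25% of its 4802, also stand in Scd2, and 284 stand in Scd3. Estimated counts of Scd1 were not whole in 10 of 24 libraries, so some reads were split with other features, and a small part of the Scd1 and Scd2 values may be shared.

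Among the fatty acid genes upstream of the desaturases, Fasn was lower in both batches, and Acaca and Elovl6 in the OC batch. Fasn (ENSMUSG00000025153, chromosome 11), the synthase itself, stood at 38.4, 37.0 and 39.3 CPM with acetophenone, 37.1, 31.4 and 34.8 CPM with decanal and 41.0, 33.0 and 30.2 CPM with the AD mixture, against 45.9, 40.5 and 44.8 CPM in AD controls. It stood at 42.5, 44.8 and 37.7 CPM with octanal, 33.2, 32.5 and 31 CPM with cis-3-hexenol and 28.3, 28.8 and 31.9 CPM with the OC mixture, against 48.1, 35.3 and 46.7 CPM in OC controls. Acetophenone, decanal, cis-3-hexenol and OC mixture libraries lay wholly below their controls, whereas the AD mixture and octanal overlapped them. Fold changes on the log2 scale were -0.20 ± 0.10, -0.35 ± 0.10 and -0.33 ± 0.10 for acetophenone, decanal and the AD mixture. They were, for the OC groups, -0.06 ± 0.10 for octanal, -0.43 ± 0.11 for cis-3-hexenol and -0.55 ± 0.11 for the OC mixture. Correction for transcript length and GC content, described further on, turned all 3 OC values of Fasn to positive.

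Acaca (ENSMUSG00000020532, chromosome 11), whose product makes malonyl-CoA, is the least abundant of the 8 genes, with 124 to 271 counts per library. Its levels were 7.70, 7.28 and 6.48 CPM with acetophenone, 8.33, 7.25 and 8.05 CPM with decanal and 9.56, 8.19 and 6.55 CPM with the AD mixture, against 5.99, 6.87 and 7.96 CPM in AD controls. All 3 AD odor groups overlapped their controls, at log2 fold changes of 0.05 ± 0.15, 0.18 ± 0.15 and 0.22 ± 0.15. Its OC levels were 6.90, 7.30 and 7.39 CPM with octanal, 6.80, 8.11 and 7.42 CPM with cis-3-hexenol and 6.23, 6.06 and 6.87 CPM with the OC mixture, against 11.1, 8.10 and 10.2 CPM in OC controls. Octanal and the OC mixture lay below their controls, and 1 cis-3-hexenol library overlapped them. Log2 fold changes were -0.44 ± 0.13 for octanal, -0.40 ± 0.13 for cis-3-hexenol and -0.62 ± 0.13 for the OC mixture. With the offsets for transcript length and GC content described further on, these became -0.10, -0.09 and -0.21, and the calls with octanal and the OC mixture did not hold.

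Elovl6 (ENSMUSG00000041220, chromosome 3), the elongase gene, overlapped its controls in the AD batch and was lower with each odor in the OC batch. In the AD batch it stood at 24.3 to 29.6 CPM with acetophenone, 29.2 to 30.1 CPM with decanal and 26.7 to 29.6 CPM with the AD mixture, against 28.6 to 30.8 CPM in AD controls, with overlap throughout and log2 fold changes of -0.12 ± 0.07, 0.00 ± 0.07 and -0.07 ± 0.07. In the OC batch it stood at 27.3, 30.4 and 29.3 CPM with octanal, 26.3, 28.8 and 25.7 CPM with cis-3-hexenol and 23.9, 26.2 and 23.9 CPM with the OC mixture, against 30.9, 32.2 and 35.0 CPM in OC controls. Each OC odor group lay below its controls. The log2 fold changes were -0.17 ± 0.08 for octanal, -0.28 ± 0.08 for cis-3-hexenol and -0.41 ± 0.08 for the OC mixture.

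Srebf1 (ENSMUSG00000020538, chromosome 11), the gene of the regulator SREBP-1, was lower with decanal and the AD mixture and not with octanal. It stood at 160, 145 and 168 CPM with acetophenone, 130, 141 and 146 CPM with decanal and 144, 134 and 116 CPM with the AD mixture, against 165, 173 and 168 CPM in AD controls. It stood at 156, 152 and 148 CPM with octanal, 118, 120 and 132 CPM with cis-3-hexenol and 132, 113 and 114 CPM with the OC mixture, against 126, 140 and 142 CPM in OC controls. Decanal and the AD mixture lay below their controls, octanal lay above its controls, and the other groups overlapped them. Fold changes on the log2 scale were -0.10 ± 0.07 for acetophenone, -0.28 ± 0.07 for decanal, -0.36 ± 0.07 for the AD mixture, 0.16 ± 0.07 for octanal, -0.14 ± 0.07 for cis-3-hexenol and -0.18 ± 0.07 for the OC mixture. With the offsets for transcript length and GC content described further on, the OC values became 0.26 for octanal, -0.01 for cis-3-hexenol and 0.03 for the OC mixture. Counts per gene do not part the SREBP-1a and SREBP-1c transcripts, which begin at separate start sites.

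Hmgcs1 (ENSMUSG00000093930, chromosome 13), an early gene of sterol synthesis, was lower with decanal and higher with octanal. Its levels were 104, 105 and 98.2 CPM with acetophenone, 80.2, 84.9 and 82.9 CPM with decanal and 98.9, 86.6 and 77.4 CPM with the AD mixture, against 109, 98.6 and 102 CPM in AD controls. They were 112, 100 and 98.3 CPM with octanal, 78.5, 81.6 and 86.5 CPM with cis-3-hexenol and 96.7, 79.9 and 86.9 CPM with the OC mixture, against 90.9, 71.3 and 81.1 CPM in OC controls. Decanal lay wholly below its controls and octanal wholly above them, while the other 4 groups overlapped. The log2 fold changes were -0.32 ± 0.07 for decanal and -0.24 ± 0.07 for the AD mixture, and -0.01 ± 0.07 for acetophenone. They were 0.35 ± 0.09 for octanal, 0.02 ± 0.09 for cis-3-hexenol and 0.11 ± 0.09 for the OC mixture. The offsets for transcript length and GC content described further on gave 0.19 with octanal and -0.20 with the AD mixture. Neither call held.

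Sqle (ENSMUSG00000022351, chromosome 15), the squalene epoxidase gene, parted the batches most clearly. It stood at 99.7, 93.7 and 106 CPM with acetophenone, 75.2, 81.2 and 81.0 CPM with decanal and 85.8, 81.0 and 75.8 CPM with the AD mixture, against 94.3, 99.9 and 94.2 CPM in AD controls. It stood at 102, 100 and 97.3 CPM with octanal, 81.1, 73.6 and 76.7 CPM with cis-3-hexenol and 86.8, 73.8 and 91.0 CPM with the OC mixture, against 60.4, 69.2 and 56.7 CPM in OC controls. Decanal and the AD mixture lay below their controls, and all 3 OC odor groups lay above theirs. Fold changes on the log2 scale were 0.06 ± 0.06 for acetophenone, -0.28 ± 0.06 for decanal, -0.25 ± 0.06 for the AD mixture, 0.69 ± 0.08 for octanal, 0.31 ± 0.09 for cis-3-hexenol and 0.43 ± 0.09 for the OC mixture.

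**Figure D2:**
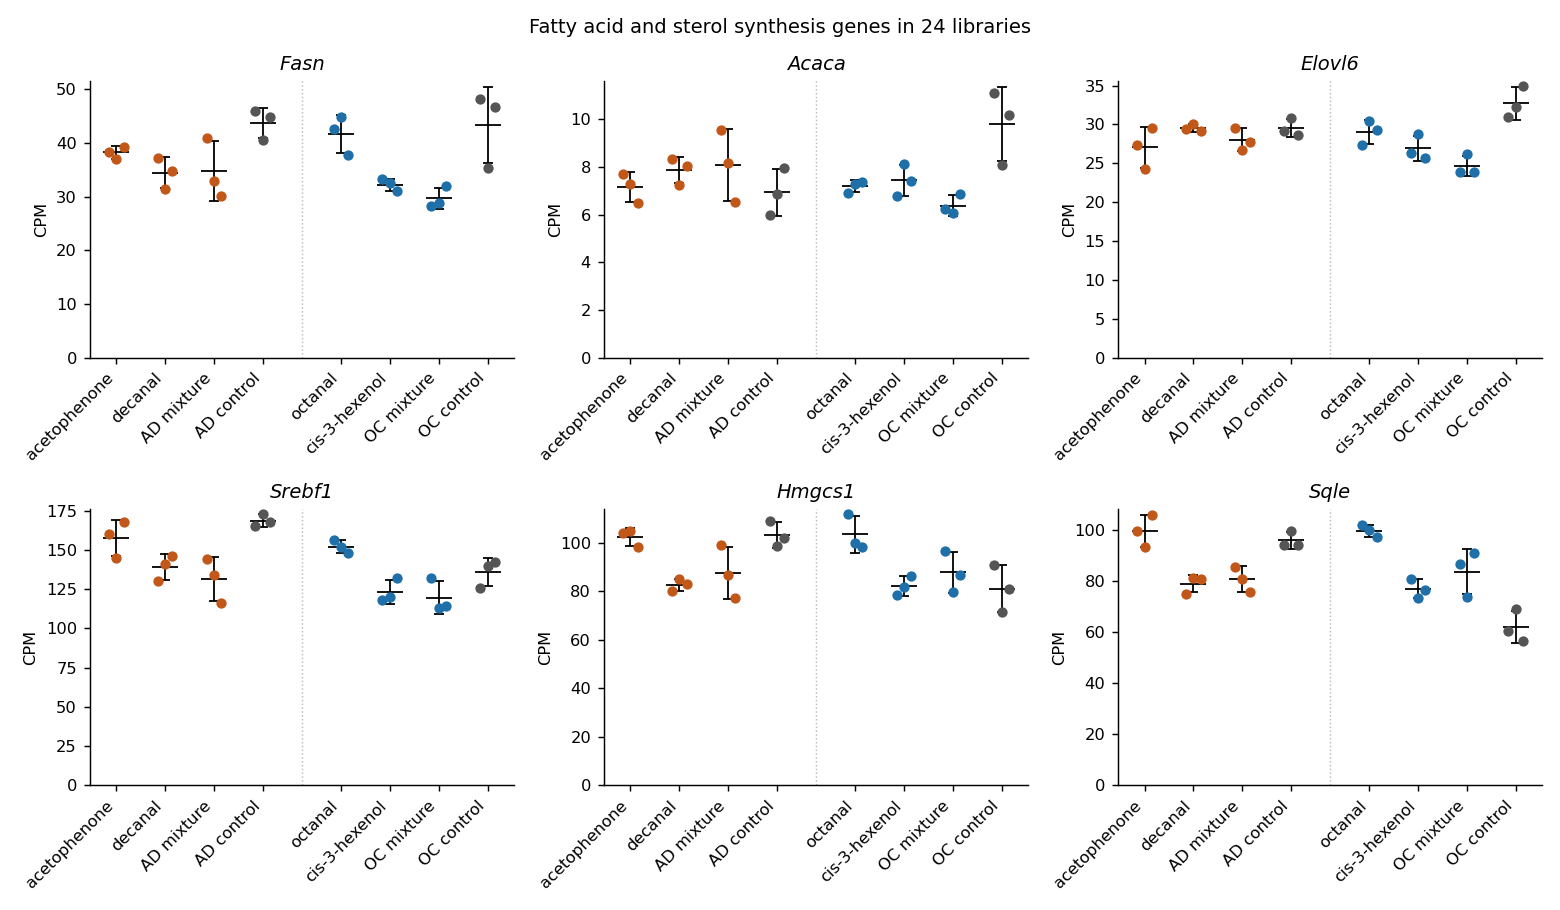
CPM of Fasn, Acaca, Elovl6, Srebf1, Hmgcs1 and Sqle in each of the 24 libraries, drawn as for the desaturase genes: points are libraries, lines and bars the group mean and SD (n = 3). Sqle is lower with decanal and the AD mixture than in AD controls and higher in each OC odor group than in OC controls.

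Calls rest on edgeR's quasi-likelihood test, with p-values adjusted by Benjamini and Hochberg over all genes tested and a threshold of 0.05. With acetophenone 0 of the 8 genes were called, where 0.00512% of all genes were called. DESeq2 called 0 of the 8, and edgeR without the low-count filter called 2. Decanal had 6 of the 8 called lower and 0 higher, in a comparison where 12.5% of all genes were called lower and 11.4% higher. The AD mixture had the same counts, 6 lower and 0 higher, where 11.6% of all genes were called lower and 10.6% higher. Octanal had 3 called lower (Scd1, Scd2 and Acaca) and 2 higher (Hmgcs1 and Sqle), where the shares over all genes were 15% lower and 14.4% higher; with offsets for transcript length and GC content it had 1 called lower (Scd1) and 3 higher (Fasn, Srebf1 and Sqle). Cis-3-hexenol had 4 called lower (Scd1, Scd2, Fasn and Elovl6) and Sqle called higher, where 6.65% of all genes were called lower and 5.56% higher. The OC mixture had 5 called lower, with Acaca added to those 4, and Sqle called higher, where 12.7% were called lower and 11.5% higher. The genes were chosen with these comparisons in view, so no support is drawn from their counts. The 3 comparisons of a batch share their control mice.

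**Figure D3:**
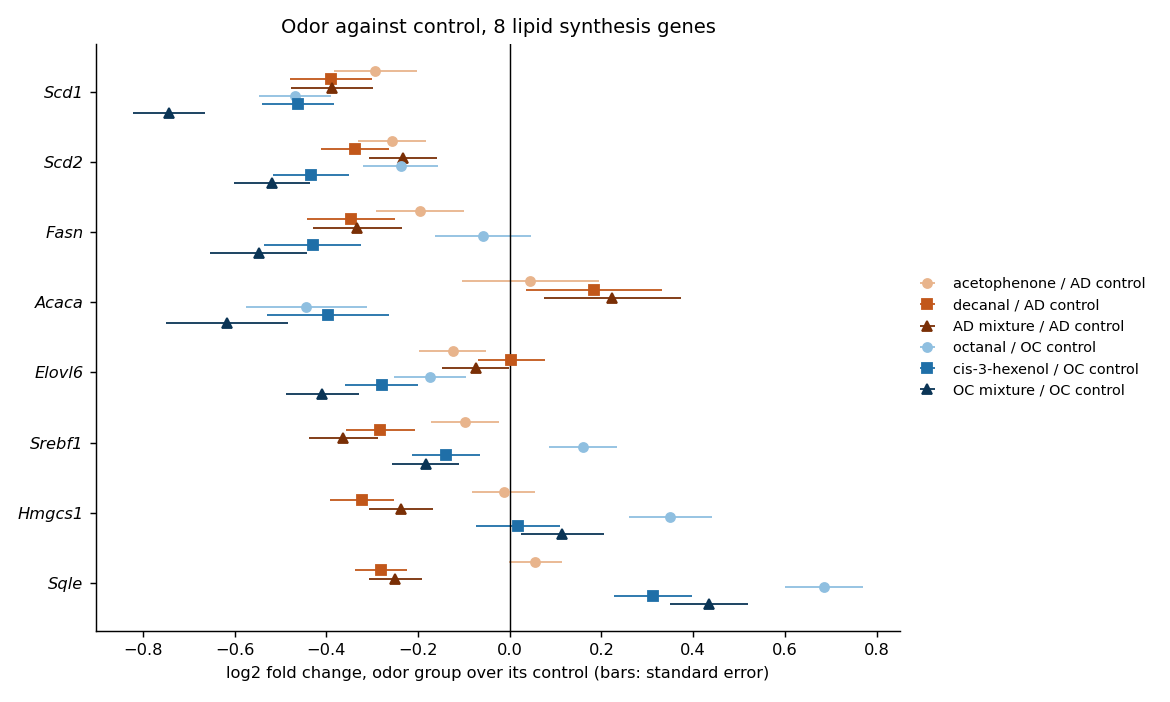
Log2 fold change of each of the 8 genes in each odor group over the control of its batch (points; bars are the standard error), AD batch in orange shades and OC batch in blue shades. All 6 values lie left of 0 for Scd1 and Scd2, while those of Sqle run from -0.28 with decanal to 0.69 with octanal.

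Odor groups were then set against each other within a batch. The control mice entered the scaling and the shared estimate of spread, but not the difference itself. The 8 genes were chosen with earlier results of these libraries known, so the p-values given here are not independent of that choice. Hmgcs1 fell with decanal relative to acetophenone, by 0.31 ± 0.07 on the log2 scale (adjusted p = 0.00431, edgeR), and Sqle fell by 0.34 ± 0.06 (adjusted p = 0.000562), both with no overlap between the groups. These 2 were the only ones of the 8 called between decanal and acetophenone, where 27% of all genes were called. Every decanal library lay below every acetophenone library in 20.8% of all genes. Srebf1 was also called with no low-count filter (-0.19, adjusted p = 0.0172), by DESeq2 (adjusted p = 0.0339) and in a fit of the 6 libraries (adjusted p = 0.0354), and Fasn with length and GC offsets (-0.28, adjusted p = 0.0209). The AD mixture relative to acetophenone had 3 of the 8 called, against 25.3% of all genes. Every AD mixture library lay below every acetophenone library in 18.9% of all genes. Sqle fell by 0.30 ± 0.06 (adjusted p = 0.00125) and Srebf1 by 0.26 ± 0.07 (adjusted p = 0.0169), both without overlap, and Hmgcs1 fell by 0.22 ± 0.07 (adjusted p = 0.0285) with overlap. The call of Srebf1 was lost without acetophenone 3 (adjusted p = 0.0793) or AD mixture 3 (0.0619), and that of Hmgcs1 without acetophenone 1 (0.0727), acetophenone 2 (0.0811), AD mixture 2 (0.0541) or AD mixture 3 (0.0894). Hmgcs1 also lost its call with length and GC offsets (-0.17, adjusted p = 0.128). It did so with the replicate block added (0.0936) and in a fit of the 6 libraries (0.0604). Srebf1 lost its call with the offsets and the block together (0.0502). Sqle kept its call in all of these fits.

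Scd1 and Scd2 did not differ detectably between the AD odors. Decanal minus acetophenone was -0.10 for Scd1 (95% interval -0.29 to 0.10) and -0.08 for Scd2 (-0.24 to 0.08), and the AD mixture minus acetophenone was -0.09 for Scd1 (-0.29 to 0.10) and 0.02 for Scd2 (-0.13 to 0.18). Between the AD mixture and decanal none of the 8 genes was called, and 0% of all genes were; Scd1 differed by 0.00 (-0.19 to 0.19) and Scd2 by 0.11 (-0.05 to 0.26).

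In the OC batch none of the 8 genes was called between odor groups, and 0% of all genes were in octanal against cis-3-hexenol, in the OC mixture against octanal and in the OC mixture against cis-3-hexenol. At an unadjusted p under 0.05 there were 2496, 2447 and 1187 genes in these comparisons, and DESeq2 called 232, 251 and 16. All 8 genes nevertheless had every OC mixture library below every octanal library, while 10.3% of all genes did. The difference was -0.27 for Scd1 (95% interval -0.44 to -0.11, adjusted p = 0.202) and -0.49 for Fasn (-0.71 to -0.26, adjusted p = 0.153), and adjusted p ran up to 0.631, for Acaca. Octanal libraries lay wholly above cis-3-hexenol libraries in Scd2, Fasn, Srebf1, Hmgcs1 and Sqle, where 13.3% of all genes did. The OC mixture stood below cis-3-hexenol in Scd1, by -0.28 (-0.45 to -0.11, adjusted p = 0.537), without overlap. In this comparison 7.48% of all genes lay wholly below.

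Decanal and octanal are both straight-chain aldehydes that differ in chain length, and each was given in its own batch with its own controls. Their responses were set against each other as the change with decanal over AD controls minus the change with octanal over OC controls, in a fit of all 24 libraries. That difference was -0.95 for Sqle (95% interval -1.16 to -0.73), -0.65 for Hmgcs1 (-0.90 to -0.40), -0.42 for Srebf1 (-0.65 to -0.20) and 0.65 for Acaca (0.24 to 1.05), and these 4 passed the threshold. Over all genes 18% were called lower and 21.2% higher. The desaturase genes differed by 0.10 for Scd1 (-0.15 to 0.35) and -0.08 for Scd2 (-0.32 to 0.16), while Fasn stood at -0.27 (-0.57 to 0.04) and Elovl6 at 0.20 (-0.02 to 0.41); these 4 did not pass. The contrasts inside this difference are those the choice of genes drew on, so it too is a description.

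The controls differed between the batches, as did the odor groups. Levels set side by side across batches carry any shift between them, so they do not divide the difference into parts. With all 24 libraries scaled together, Sqle averaged 78.6 ± 3.52 CPM with decanal and 101 ± 2.12 CPM with octanal (SD, n = 3 each), and 93.9 ± 3.13 CPM in AD controls and 62.7 ± 6.48 CPM in OC controls. On the log2 scale Sqle was 0.36 lower with decanal than with octanal, and 0.58 higher in AD controls than in OC controls. For Acaca the decanal and octanal groups differed by 0.10 and the controls by -0.55 (AD minus OC), and for Srebf1 by -0.16 and 0.26. Hmgcs1 differed by -0.35 between the odor groups and by 0.30 between the controls. The odorant and the batch cannot be told apart here, since no group was repeated in both batches apart from the control.

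**Figure D4:**
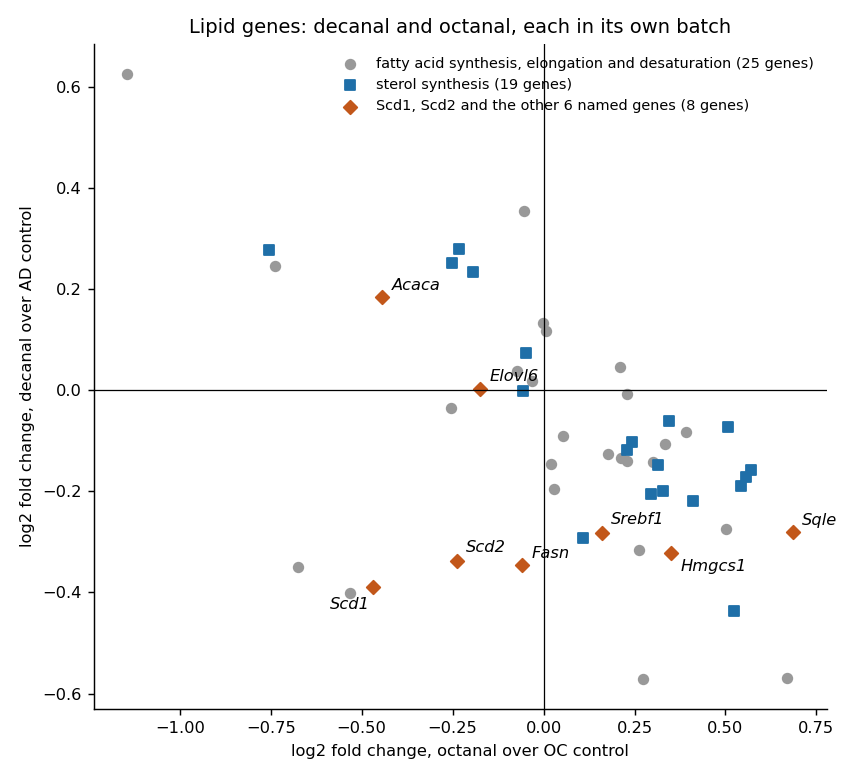
Log2 fold change with decanal over AD control (vertical) against that with octanal over OC control (horizontal), 1 point per gene, for the 8 named genes (orange), 19 other sterol synthesis genes (blue) and 25 other fatty acid genes (grey). Scd1 and Scd2 lie at lower left, negative with both aldehydes, and Sqle, Hmgcs1 and most sterol genes lie at lower right, negative with decanal and positive with octanal.

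The other genes of sterol synthesis, 19 tested of a list of 19, were followed beside Hmgcs1 and Sqle. With octanal 11 rose and 3 fell, where 14.4% of all genes were called higher and 15% lower, at a median log2 fold change of 0.295, against -0.0208 over all genes. Nsdhl, which acts in demethylation of the sterol ring, rose by 0.57 ± 0.08 (adjusted p = 0.00022), and Idi1, which isomerizes the isoprenoid unit, by 0.56 ± 0.08 (adjusted p = 0.000239). With the OC mixture 7 rose and 2 fell, at a median of 0.152 and where 11.5% of all genes were called higher and 12.7% lower. With cis-3-hexenol 3 rose and 1 fell, at a median of 0.0959 and where 5.56% of all genes were called higher and 6.65% lower. Ggps1, which makes the isoprenoid for protein prenylation, rose in both, by 0.51 ± 0.07 with the OC mixture (adjusted p = 0.000278) and by 0.37 ± 0.07 with cis-3-hexenol (adjusted p = 0.00625).

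In the AD batch the sterol list had calls in both directions, where 11.4% of all genes were called higher and 12.5% lower with decanal, and 10.6% higher and 11.6% lower with the AD mixture. With decanal 4 fell and 3 rose, at a median of -0.118 against 0.0105 over all genes, and with the AD mixture 2 fell and 2 rose, at a median of -0.0513. Lss, which closes the sterol rings right after Sqle, fell by 0.44 ± 0.10 with decanal (adjusted p = 0.00455) and by 0.41 ± 0.10 with the AD mixture (adjusted p = 0.00745). It rose by 0.52 ± 0.08 with octanal (adjusted p = 0.000364). Mvk and Pmvk, the kinases of mevalonate, rose with decanal, by 0.25 ± 0.07 (adjusted p = 0.0116) and 0.28 ± 0.09 (adjusted p = 0.0334). Acetophenone called none of the 19, and their median was -0.0116. As differences between the decanal and octanal responses, 11 of the 19 were called lower and 4 higher, at a median of -0.387. The erythroid genes all rose with decanal and all fell with octanal, as given above, while this list had calls in both directions with each. Of 8 neutrophil and marrow genes 7 rose with decanal and 7 fell with octanal. Of 8 sustentacular cell genes, markers of the supporting cells, 2 rose and 5 fell with decanal, and 5 rose and 0 fell with octanal. With octanal 14.4% of all genes were called higher and 15% lower. The summed level of the 8 sustentacular genes was 19400 to 20600 CPM with decanal against 21200 to 21800 CPM in AD controls. With octanal it was 21700 to 23700 CPM, against 14900, 19300 and 20000 CPM in OC controls 1, 2 and 3. OC control 1 had the lowest sustentacular sum of all libraries. The part of these cells in the sterol gene values was not tested.

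Of the other genes for making, lengthening and desaturating fatty acids, 25 of 27 were tested. With octanal 9 rose and 2 fell, with the OC mixture 5 rose and 2 fell, and with cis-3-hexenol 1 rose and 2 fell. With decanal and with the AD mixture 2 rose and 5 fell. Over all genes, 14.4% were called higher and 15% lower with octanal, 11.5% and 12.7% with the OC mixture, 5.56% and 6.65% with cis-3-hexenol, 11.4% and 12.5% with decanal and 10.6% and 11.6% with the AD mixture. Medians lay between -0.106 with decanal and 0.0965 with cis-3-hexenol, and acetophenone called none. Acly, which makes cytosolic acetyl-CoA from citrate, fell by 0.57 ± 0.05 with decanal (adjusted p = 3.75e-06) and by 0.52 ± 0.05 with the AD mixture (adjusted p = 7.24e-06), and rose by 0.67 ± 0.09 with octanal (adjusted p = 0.00021). In these 3 comparisons Acly had the signs of Sqle and Hmgcs1, and with octanal the opposite sign to Scd1 and Scd2. Fads6, named as a desaturase by sequence, was the gene of this list with the widest span: 0.62 ± 0.12 with decanal (adjusted p = 0.00157) and -1.14 ± 0.17 with octanal (adjusted p = 0.000295). It also fell with cis-3-hexenol, by 0.80 (adjusted p = 0.00907), and with the OC mixture, by 1.27 (adjusted p = 0.000262). Acacb, the mitochondrial counterpart of Acaca, fell by 1.27 ± 0.35 with cis-3-hexenol (adjusted p = 0.0277), and its change with the OC mixture was -1.098 ± 0.34 (adjusted p = 0.0274).

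Genes for sensing and taking up sterols, 15 tested of 17, had calls in both directions. Npc1 and Abca1, which carry cholesterol out of lysosomes and out of the cell, rose with decanal, by 0.49 ± 0.10 (adjusted p = 0.0023) and 0.47 ± 0.13 (adjusted p = 0.0184). With octanal they fell, by 0.88 ± 0.13 (adjusted p = 0.000337) and 0.77 ± 0.16 (adjusted p = 0.00201). Npc1 and Abca1 stood on the other side of 0 from Hmgcs1 and Sqle with either aldehyde. Over the list, 3 rose and 1 fell with decanal, 3 rose and 2 fell with the AD mixture, 2 rose and 2 fell with octanal, 0 rose and 1 fell with cis-3-hexenol, and 0 rose and 3 fell with the OC mixture. Over all genes the share called in 1 direction in these comparisons ran from 5.56% higher with cis-3-hexenol to 15% lower with octanal. Srebf2, the regulator of sterol genes, fell by 0.26 ± 0.08 with the OC mixture (adjusted p = 0.0226), in which Hmgcs1 and Sqle were not below their controls.

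Transcript length and GC content bear on several of these values. The longest annotated transcripts of the 8 genes ran from 3464 bases in Hmgcs1 to 10050 bases in Fasn, against a median of 3071.5 over genes tested in the AD batch. With an offset per library that levels trends in length and GC content, Fasn turned to 0.48 with octanal, 0.05 with cis-3-hexenol and 0.13 with the OC mixture. Acaca, with a transcript of 9513 bases, moved to -0.10 with octanal and -0.21 with the OC mixture. Scd1 was hardly touched in the OC batch, at -0.51 with octanal, -0.47 with cis-3-hexenol and -0.74 with the OC mixture, and stood at -0.31 with decanal. Scd2 stood at -0.27 with decanal, -0.17 with the AD mixture, -0.20 with octanal and -0.41 with the OC mixture, and its calls with the AD mixture and octanal were lost. Sqle stood at -0.20 with decanal and 0.64 with octanal, and Hmgcs1 at -0.27 and 0.19. The octanal call of Hmgcs1 was lost, as was its call with the AD mixture, at -0.20. With cis-3-hexenol and the OC mixture, where Hmgcs1 was not called, its values became -0.12 and -0.07. Srebf1 moved to 0.26 with octanal, where it became called, to -0.01 with cis-3-hexenol and to 0.03 with the OC mixture. The decanal minus octanal difference of Fasn became -0.89 and passed the threshold, and that of Acaca became 0.27 and no longer did. Among the other sterol genes 10 rose and 1 fell with octanal under these offsets, 4 rose and 1 fell with the OC mixture, and 1 rose and 1 fell with decanal. Of the other fatty acid genes 5 rose and 1 fell with octanal under the offsets, and 1 rose and 1 fell with the OC mixture. Elovl6 lost its cis-3-hexenol call under the offsets, at -0.25. Under the offsets and the replicate block together, Sqle lost its calls with the AD mixture (-0.18) and with cis-3-hexenol (0.30).

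**Figure D5:**
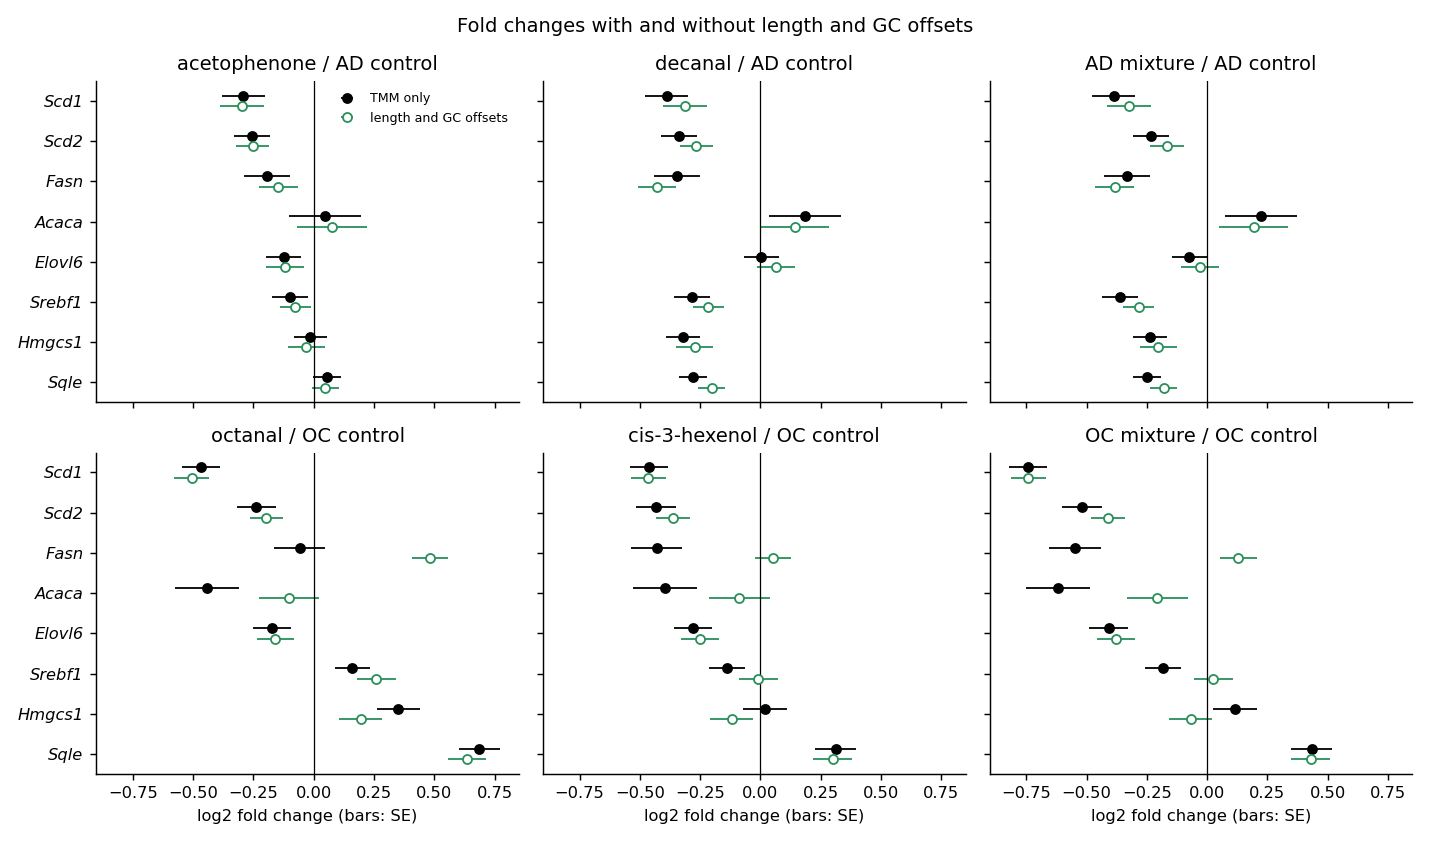
Log2 fold changes of the 8 genes in the 6 odor groups over their controls, without (black) and with (open green) offsets for transcript length and GC content; bars are standard errors. Scd1, Elovl6 and Sqle stay close to their first values, while Fasn and Acaca move to the right in the OC batch, Fasn to 0.48 with octanal. Srebf1 moves to the right there as well, by less, to 0.03 with the OC mixture.

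Per length of the longest transcript, levels can be set against each other between genes. In controls Srebf1 had 39.2 CPM per kilobase in AD controls and 31.7 in OC controls, Hmgcs1 29.8 and 23.4, Scd2 22.1 and 24.5, Sqle 21.5 and 13.9, and Scd1 13 and 13.8. Far lower stood Elovl6, at 4.96 and 5.50 CPM per kilobase, Fasn, at 4.35 and 4.31, and Acaca, at 0.729 and 1.03. The neighbours Scd2 and Sqle in AD controls, and Scd2 and Hmgcs1 and also Scd1 and Sqle in OC controls, differed by less than their SDs. Scd2 therefore stood above Scd1 per length as well as by count, and Scd3, at 1.35 CPM per kilobase in both batches, was well below either.

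Likeness was measured as the correlation of log2 CPM over all 24 libraries, each value centred on the mean of its batch, among 12610 genes with a mean of at least 5 CPM. The points share their batches, controls and scaling, so these are descriptions. Among the genes most like Scd1 were Soga3 (Pearson r = 0.839, Spearman rho = 0.805) and Dkk2, a Wnt inhibitor (r = 0.832, rho = 0.757). Among those most like Scd2 were Plpp3, a lipid phosphatase (r = 0.855, rho = 0.834), and Thsd4 (r = 0.848, rho = 0.836). Scd1 and Scd2 stood at r = 0.819 with each other (rho = 0.803). Without the 2 libraries farthest from the median of Scd1, the value for Scd1 with Scd2 was 0.782. Scd1 and Scd2 stood at 0.732 with each other among AD libraries alone and at 0.863 among OC libraries alone. Scd2 stood at 0.818 with Fasn, and Scd1 at 0.75 with Elovl6 and 0.613 with Fasn. Sqle was at r = -0.304 with Scd1, with 0.547 within the AD batch and -0.662 within the OC batch, so that Sqle went with Scd1 among the AD libraries and against it among the OC libraries.

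Markers of cells known to be rich in desaturases were followed beside Scd1 and Scd2. The 11 ensheathing and Schwann cell genes, markers of the glia of the olfactory nerve, summed to 261 to 347 CPM with acetophenone, 336 to 370 CPM with decanal and 332 to 375 CPM with the AD mixture, against 361 to 397 CPM in AD controls. In the OC batch they summed to 314 to 334 CPM with octanal, 359 to 385 CPM with cis-3-hexenol and 341 to 346 CPM with the OC mixture, against 393 to 447 CPM in OC controls. The glial sum thus lay below the controls in acetophenone and all 3 OC odor groups and overlapped them in the other 2. Of the 11 genes 2 fell with the AD mixture, 2 with octanal, 1 with cis-3-hexenol and 4 with the OC mixture, and 0 with acetophenone or decanal. Over all genes 11.6% were called lower with the AD mixture, 15% with octanal, 6.65% with cis-3-hexenol and 12.7% with the OC mixture. The part of these cells in the Scd1 and Scd2 values was not tested.

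Fat and skin gland markers were scarce. The 10 adipocyte genes summed to 92.5 to 97.1 CPM with decanal and 88.9 to 101 CPM with the AD mixture, against 73.3 to 83.6 CPM in AD controls, and with acetophenone to 75.9 to 84.1 CPM, overlapping those controls. They summed to 63.6 to 78.6 CPM with octanal, 79.7 to 85 CPM with cis-3-hexenol and 63.8 to 83.5 CPM with the OC mixture, against 71.9 to 87.5 CPM in OC controls, with overlap throughout, and the fat hormone gene Lep was at 0 in every group but decanal. The 8 sebaceous gland genes summed to 16.6 to 24.2 CPM over all 24 libraries, with Awat1 at 0 in every group but decanal. Of the genes of these lists that were tested, 5 of 7 adipocyte genes rose with decanal and 4 with the AD mixture, and 1 of 4 sebaceous genes rose with each. Over all genes 11.4% were called higher with decanal and 10.6% with the AD mixture.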

How the data were processed

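RNA libraries of 24 mouse olfactory epithelia were analysed from 1 table per batch of expected counts per Ensembl gene, deposited by the authors without scaling between libraries. The submitters' processing notes name STAR 2.7.10b, Salmon 1.10.1, R 4.4.2 and the build GRCm39; the role of each and the annotation release are not given in the sources used here. Libraries were stranded poly(A) preparations, per the labels' protocols. Of the values, 12.8% (AD) and 12.6% (OC) were fractional; rounding moved none by more than 0.5. GENCODE M21, of the earlier build GRCm38, named 52029 of 57010 IDs and gave the lengths and GC contents. Chromosomes came from RefSeq genes matched by symbol. IDs without a symbol held 0.313% and 0.321% of counts.

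Genes were tested with the two-sided quasi-likelihood test of edgeR 4.0.16 (R 4.3.3) with TMM scaling and the filterByExpr filter, fitting the 12 libraries and 4 groups of a batch together without a block, leaving 19525 (AD) and 19175 (OC) genes. The difference of the decanal and octanal responses came from a joint fit of 24 libraries over 20018 genes. A standard error is the fold change on the log2 scale divided by the square root of F, and intervals cover 95%. The scripts were tested on simulated counts. Alternatives were DESeq2 1.42.0 (size factors and Wald test), the low-count filter dropped or replaced by 1 CPM in 3 libraries, a robust fit, a replicate block, offsets for length and GC content (alone and with the block), fits of the libraries compared only, and each library left out.

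The 8 genes, the 5 other lipid lists and the marker lists were chosen with earlier results of these data known. From each lipid list, up to 3 called genes with the largest change per odor group could be named, plus Scd3 and Scd4, and for likeness the 3 genes nearest Scd1 and Scd2; a few genes under this rule are not reported here. Values of these named genes in other groups, Mvk and the genes of the last part were chosen after values were seen.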

Additional observations from a re-analysis of the deposited data

Results flagged for a closer look

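The changes with decanal and with octanal, each over the controls of its own batch, differed past the threshold in 4 of the 8 genes by the interaction term of the fit of all 24 libraries. The difference, decanal minus octanal on the log2 scale, was -0.9467 for Sqle, -0.6516 for Hmgcs1, -0.422 for Srebf1 and 0.6468 for Acaca. The sterol gene Sqle and its early partner Hmgcs1 were both below AD controls with decanal and above OC controls with octanal, and Srebf1 was below with decanal. Acaca was below its controls with octanal and overlapped them with decanal. Each difference passed in all 12 fits that left out 1 library. That of Acaca did not pass with length and GC offsets (0.27), with these offsets and the replicate block (0.26) or with no low-count filter (0.57). The batches differ in their controls as well as in the odorant, and the 2 cannot be told apart.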

How the results depend on the processing

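Over the 8 genes and the 6 comparisons with controls, 720 alternative values were computed, of which 628 kept direction and side of the threshold. For Scd1 this held for 89 of 90; the other was acetophenone with no low-count filter, which became called at -0.30. For Scd2 it held for 75 of 90, and 14 lost the call, all with the AD mixture or octanal. Of values called before or after the change, only those of Fasn changed sign. With length and GC offsets it stood at 0.4825 with octanal, 0.0519 with cis-3-hexenol and 0.1293 with the OC mixture. With the replicate block added it stood at 0.4853, 0.0537 and 0.13. With decanal the offsets moved Fasn from -0.35 to -0.43. The offsets level trends with length and GC content together, and the part of either in these shifts was not tested. Some uncalled values changed sign too. Under the offsets Hmgcs1 stood at -0.12 with cis-3-hexenol and -0.07 with the OC mixture. Srebf1 with the OC mixture went from -0.18 to 0.03.

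Counts of the 8 genes called moved as follows. Without the low-count filter acetophenone called 2, octanal against cis-3-hexenol 4 and the OC mixture against octanal 3; DESeq2 called 3 and 2 in those last 2. Length and GC offsets gave 3 for cis-3-hexenol, and with the replicate block 2 for cis-3-hexenol and 3 for the AD mixture. Fits of the 6 libraries compared gave 3 for octanal, 2 for cis-3-hexenol and 5 for octanal against cis-3-hexenol. With 1 library left out, counts ran from 3 to 6 for the AD mixture, from 3 to 5 for octanal, from 2 to 6 for cis-3-hexenol and from 1 to 4 for the AD mixture against acetophenone. The cause of these changes was not tested.

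Counts over all genes moved by over 1.5 times in several settings. Acetophenone called 1 gene, against 300 with no low-count filter, 25 by DESeq2, 5 with 6 libraries and 0 to 39 with a library left out. Cis-3-hexenol called 2341, against 1269 with offsets, 879 with offsets and block, 1047 with 6 libraries and 533 to 3150 with a library left out. The OC mixture called 4647, against 2896 with offsets and block, 2816 with 6 libraries and 3035 at the lowest with a library left out. The comparisons with 0 calls gave 132 (AD mixture against decanal), 581 (octanal against cis-3-hexenol), 475 (OC mixture against octanal) and 188 (OC mixture against cis-3-hexenol) with no low-count filter. Octanal against cis-3-hexenol also gave 803 with 6 libraries.

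Replicate numbers did not pair the samples: in no comparison did every same-numbered pair have a correlation of deviations over 0.1. With the replicate block alone the 8 genes kept their counts of calls, such as 6 for decanal and 5 for octanal. Depth limits Acaca most, at 124 to 271 counts per library.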

Other observations

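Genes of fatty acid oxidation that were called fell in the AD batch and mostly rose with octanal. Of 17 tested of a list of 19, 0 rose and 9 fell with decanal (median log2 fold change -0.205), 0 rose and 9 fell with the AD mixture (-0.179), 7 rose and 1 fell with octanal (0.213), 1 rose and 0 fell with cis-3-hexenol and 2 rose and 1 fell with the OC mixture. Over all genes 11.4% were called higher and 12.5% lower with decanal, 10.6% and 11.6% with the AD mixture, 14.4% and 15% with octanal, 5.56% and 6.65% with cis-3-hexenol and 11.5% and 12.7% with the OC mixture. Cpt1a, which loads fatty acids for entry into mitochondria, fell by 0.48 ± 0.07 with decanal (adjusted p = 0.000305, edgeR) and rose by 0.51 ± 0.10 with octanal (adjusted p = 0.00163). Pdk4, a kinase that spares glucose, fell by 0.63 ± 0.13 with decanal (adjusted p = 0.00261) and rose by 0.35 ± 0.10 with the OC mixture (adjusted p = 0.0161). Cpt2, the inner carnitine transferase, rose by 0.72 ± 0.10 with octanal (adjusted p = 0.000214).

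Of 17 genes of glycerolipid synthesis and lipid droplets, 0 rose and 8 fell with decanal, 0 rose and 6 fell with the AD mixture, 6 rose and 2 fell with octanal, and 4 rose and 4 fell with the OC mixture, beside the same shares over all genes. Gpam, which starts glycerolipid synthesis, fell by 0.44 ± 0.07 with decanal (adjusted p = 0.000425). Acsl3, which activates fatty acids at lipid droplets, fell by 0.33 ± 0.07 with decanal (adjusted p = 0.00218) and rose by 0.62 ± 0.09 with octanal (adjusted p = 0.000262).

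The 12 genes with every odor library below all controls of its batch in all 6 comparisons included, besides Scd1 and Scd2, Fbxo41, Akap12, Vwa1, Bcan, Herc2, Thsd4, Add2, Zbtb7a and Pdlim5. Bcan, a brain proteoglycan, had log2 fold changes from -0.52 to -0.21. These genes were named after their values were seen.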
